A study of Homo sapiens with 2 samples.

Results

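The genes described here are the 3 GADD45 genes (GADD45A, GADD45B and GADD45G) together with the immediate early response genes IER2, IER3, IER5, IFRD1, EGR1, JUN and FOS, 10 genes of the 40205 listed for RKO cells. They were chosen by name with earlier results of these same libraries known, so their values are descriptions and none of them is tested. RKO is an established human colorectal carcinoma line that carries wild-type p53. Of the 2 libraries, 1 came from RKO cells that had received an siRNA targeting hnRNPU, an abundant RNA-binding protein of the nucleus, and 1 from RKO cells that had received a control siRNA. Dose, time after transfection and siRNA sequences were not stated in the labels. The question was how loss of hnRNPU alters the mRNA profile, and 2 of the 10 mRNAs, GADD45A and IER3, are reported in other work as stabilised by hnRNPU.

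Immediate early genes are switched on within minutes of a growth factor or stress signal, without new protein synthesis, and most of their mRNAs are short-lived. Serum response factor with its ETS-family partners, CREB and AP-1 drive their promoters, and AU-rich elements in the 3' UTR, built from the pentamer ATTTA, mark many of these mRNAs for rapid decay. GADD45 proteins are small acidic nuclear proteins that bind PCNA, the CDK1 and cyclin B complex and the kinase MAP3K4, and so connect stress to DNA repair, cell cycle arrest and the p38 and JNK pathways.

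Each group held 1 library, so no difference has a replicate check, and no p-value is given. Levels are in FPKM, fragments per kilobase of gene scaled to library depth, as deposited. The steps between low FPKM values corresponded to 39807025 reads in the hnRNPU siRNA library and 31801650 in the control siRNA library. HNRNPU itself was at 75.4 FPKM in the hnRNPU siRNA library and 239 FPKM in the control siRNA library, 31.5% of control, with a log2 ratio of -1.65. All log2 ratios divide the hnRNPU siRNA value by the control siRNA value after 1 FPKM was added to each, which understates the difference of low genes. Intervals are exact 95% intervals from whole reads recovered from the FPKM values and cover counting error only, not the variation between cultures. Of 12 colon epithelial markers, 4 reached 1 FPKM (EPCAM, KRT8, KRT18 and CDX2), and 6, among them CDH1, KRT20 and MUC2, were listed at 0 in both libraries. That list summed to 103 FPKM in the hnRNPU siRNA library and 111 FPKM in the control siRNA library. No marker of blood cells (7 genes), of fibroblasts, muscle or endothelium (9) or of nerve and liver (5) exceeded 0.0269 FPKM. In these bulk libraries, fewer cells that express a gene and less of its RNA per cell cannot be told apart.

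Levels of the 10 genes spanned 2621-fold in the hnRNPU siRNA library and 2257-fold in the control siRNA library, and their order was nearly the same in both libraries. In the hnRNPU siRNA library JUN was highest at 309 FPKM, followed by GADD45A (95.5), IER3 (58.6), IER2 (50.2), IFRD1 (30.3), EGR1 (14.6), GADD45B (9.23), IER5 (3.99), FOS (1.05) and GADD45G (0.118). In the control siRNA library the order was JUN (333 FPKM), GADD45A (106), IER3 (94.99), IER2 (55.3), GADD45B (29.8), EGR1 (15.6), IFRD1 (11.7), IER5 (4.23), FOS (1.40) and GADD45G (0.147). IFRD1 and GADD45B exchanged places around EGR1, and the other 8 genes kept theirs. IFRD1 was at 3.28 times the level of GADD45B in the hnRNPU siRNA library and at 0.393 times that level in the control siRNA library. Counting intervals of neighbouring levels did not overlap at any step of either order. JUN made up 54.0% of the summed FPKM of the 10 genes in the hnRNPU siRNA library and 51.0% in the control siRNA library.

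**Figure D1:**
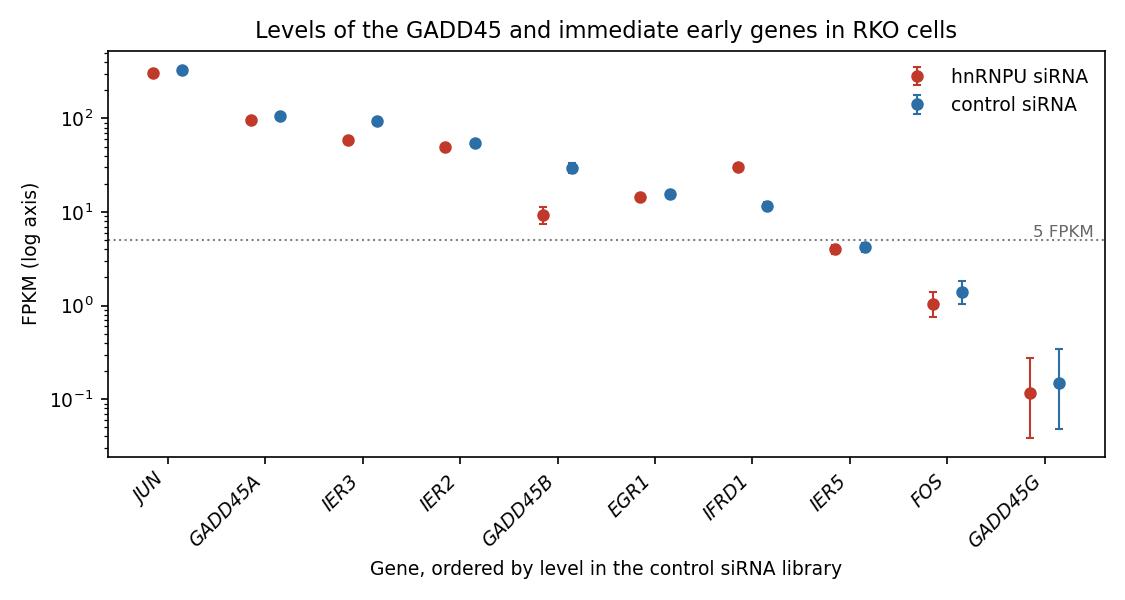
FPKM of each gene on a log axis in the hnRNPU siRNA library (red, left point) and the control siRNA library (blue, right point), with exact 95% Poisson counting intervals as bars; there was 1 library per group. The points of most genes lie close together, while GADD45B is 9.23 against 29.8 FPKM and IFRD1 is 30.3 against 11.7 FPKM.

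After hnRNPU knockdown GADD45B and IER3 were lower, IFRD1 was higher, and GADD45A, IER2, JUN and EGR1 were slightly lower. Of the 10 genes, 7 reached 5 FPKM in 1 library or both, and 6 of these 7 had a log2 ratio below 0, against 46.1% of all 7958 genes at that level. Their median log2 ratio was -0.14, against 0.03 over all 7958. IER5, FOS and GADD45G stayed below 5 FPKM, with log2 ratios below 0 too. IFRD1 alone was at least 2-fold higher, against 0.314% of all 7958 genes, and GADD45B alone was at least 2-fold lower, against 0.754% of them. At a log2 ratio of at least 0.5 there was again only IFRD1 (background 6.13%), and at -0.5 or below there were GADD45B and IER3 (background 6.20%). These same ratios helped to choose the genes, so the shares are given for scale only. For scale too, 5% of all 7958 genes lay below -0.55 and 5% above 0.54. At the recovered read numbers the counting interval of the FPKM ratio left out 1 for the 7 genes above the minimum. It held 1 for the other 3, of which FOS probably had more reads than were recovered. At this depth it left out 1 for 73.8% of the 7762 genes that reached the minimum and had recovered reads, so it says little about single genes.

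**Figure D2:**
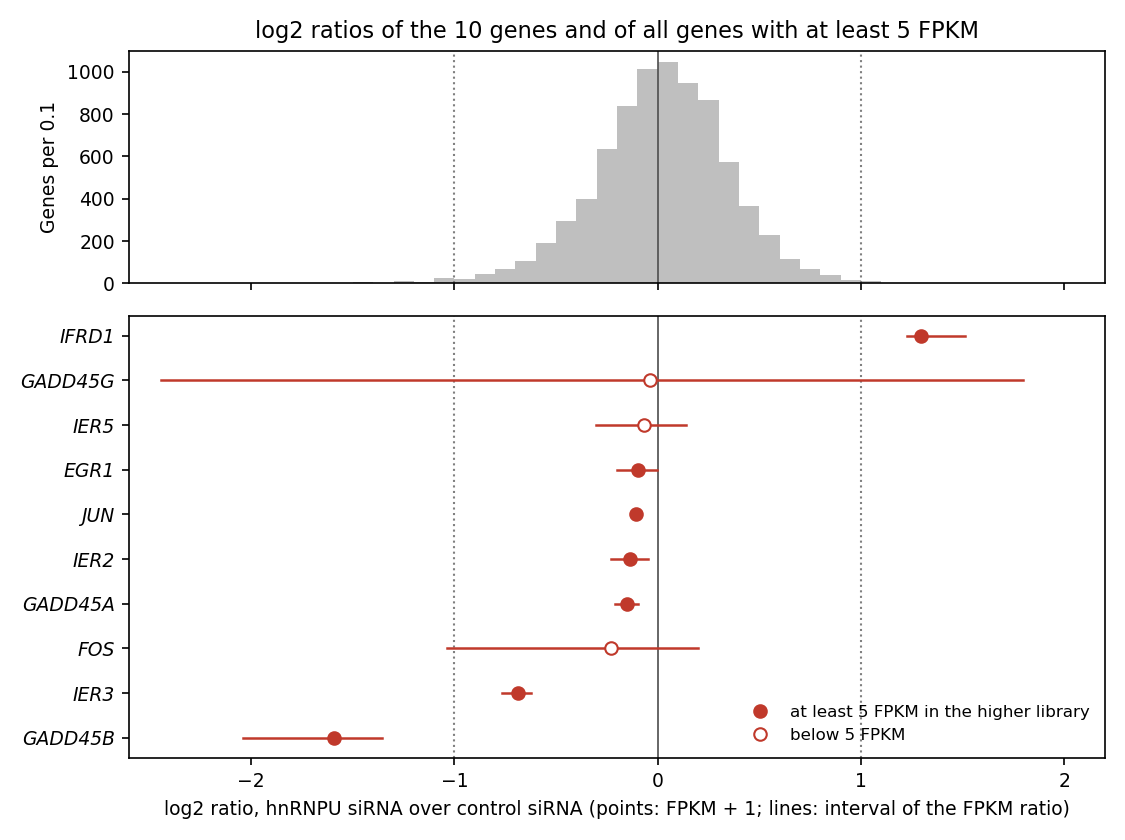
Upper panel, number of genes per 0.1 of log2 ratio among the 7958 genes that reached 5 FPKM in 1 library or both; lower panel, log2 ratio of (FPKM + 1) of each of the 10 genes (point) with the log2 of the 95% counting bounds of its FPKM ratio (line, without the added 1 FPKM), open points being below 5 FPKM. GADD45B (-1.59), IER3 (-0.69) and IFRD1 (1.30) lie apart from the 4 other filled points, which lie between -0.15 and -0.10; dotted lines mark 2-fold.

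GADD45B, the family member known for induction by NF-kB and TGF-beta, had the lowest log2 ratio of the 10. It was at 9.23 FPKM in the hnRNPU siRNA library and 29.8 FPKM in the control siRNA library, 30.9% of control and close to the share left of HNRNPU itself. The FPKM ratio was 0.309, with a counting interval of 0.243 to 0.390. Its log2 ratio of -1.59 was the 4th lowest of the 7958 genes, 1 place after HNRNPU. GADD45B lies on chromosome 19 at 2476123 to 2478257 (GRCh37, plus strand).

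GADD45A, a direct p53 target and the most abundant GADD45 gene here, differed far less. It was at 95.5 FPKM in the hnRNPU siRNA library and 106 FPKM in the control siRNA library, a log2 ratio of -0.15. The FPKM ratio of 0.899 had a counting interval of 0.864 to 0.936, and 27.5% of all 7958 genes had a lower log2 ratio. GADD45A lies on chromosome 1 at 68150860 to 68154021 (GRCh37, plus strand).

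GADD45G, the cytokine-inducible member, was near the limit of detection at 0.118 FPKM in the hnRNPU siRNA library and 0.147 FPKM in the control siRNA library (log2 ratio -0.04). The recovered reads were 5 in each library, and the counting interval of the FPKM ratio ran from 0.184 to 3.47, so no difference was detectable at this depth. It lies on chromosome 9 at 92219927 to 92221470 (GRCh37, plus strand). GADD45A therefore made up more of the family's summed FPKM after knockdown, 91.1% in the hnRNPU siRNA library and 78.0% in the control siRNA library. GADD45B made up 8.80% in the hnRNPU siRNA library and 21.9% in the control siRNA library. The summed level of the family was 105 FPKM in the hnRNPU siRNA library and 136 FPKM in the control siRNA library, and GADD45A was at 10.3 times the level of GADD45B in the hnRNPU siRNA library and 3.56 times in the control siRNA library.

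IER3, a short-lived regulator of apoptosis and of NF-kB signalling also known as IEX-1, had the next lowest log2 ratio. It was at 58.6 FPKM in the hnRNPU siRNA library and 94.99 FPKM in the control siRNA library, 61.7% of control and a log2 ratio of -0.69. The FPKM ratio of 0.617 had a counting interval of 0.588 to 0.648, and 2.60% of the 7958 genes had a lower log2 ratio. The deposited table places IER3 on an alternate GRCh37 contig of the MHC region, at positions 2043293 to 2044644 on the minus strand, whereas GENCODE 29 gives chromosome 6. The labels do not state how reads that match both copies were treated. Of the 173 genes on this contig, IER3 included, 51 reached 5 FPKM. Their median log2 ratio was 0.07, and 2 of them were lower than IER3. Whether the placement on this contig affected the values of IER3 was not tested.

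IER2, a nuclear protein induced by serum, was at 50.2 FPKM in the hnRNPU siRNA library and 55.3 FPKM in the control siRNA library (log2 ratio -0.14). IER5, known for activating heat shock factor 1, was at 3.99 FPKM in the hnRNPU siRNA library and 4.23 FPKM in the control siRNA library (log2 ratio -0.07). The counting interval of the FPKM ratio was 0.852 to 0.968 for IER2 and 0.810 to 1.10 for IER5. The interval of IER5 held 1, and no difference was detectable for it. The level of IER3 was 1.17 times that of IER2 in the hnRNPU siRNA library and 1.72 times in the control siRNA library. IER2 lies on chromosome 19 at 13261282 to 13265722 and IER5 on chromosome 1 at 181057638 to 181059979 (GRCh37, plus strand).

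IFRD1, a transcriptional co-regulator first known as a growth factor- and phorbol ester-induced gene (TIS7 in the mouse), was the 1 gene of the 10 that was higher. It was at 30.3 FPKM in the hnRNPU siRNA library and 11.7 FPKM in the control siRNA library, 2.58 times control with a counting interval of 2.34 to 2.85. Its log2 ratio of 1.30 was the 8th highest of the 7958 genes. Its paralogue IFRD2 was at 12.4 FPKM in the hnRNPU siRNA library and 10.4 FPKM in the control siRNA library (log2 ratio 0.23), so IFRD1 was at 2.45 times the level of IFRD2 after knockdown and at 1.13 times that level in control. IFRD1 lies on chromosome 7 at 112092113 to 112117258 (GRCh37, plus strand).

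EGR1, JUN and FOS are the DNA-binding transcription factors among the 10 genes. JUN and EGR1 differed little, and FOS was at a low level. JUN, the main partner in AP-1 dimers, was at 309 FPKM in the hnRNPU siRNA library and 333 FPKM in the control siRNA library, a log2 ratio of -0.11 with a counting interval of the FPKM ratio of 0.915 to 0.941. EGR1, a zinc finger factor, was at 14.6 FPKM in the hnRNPU siRNA library and 15.6 FPKM in the control siRNA library (log2 ratio -0.10; counting interval of the FPKM ratio 0.871 to 0.998). FOS, which pairs with JUN, was at 1.05 FPKM in the hnRNPU siRNA library and 1.40 FPKM in the control siRNA library, on 45 recovered reads in the hnRNPU siRNA library and 48 in the control siRNA library. The log2 ratio of FOS was -0.23. At the recovered read numbers, counting error put its FPKM ratio between 0.487 and 1.15, which holds 1. The recovered length of FOS was 1079 bases, while its annotated transcript has 2158. The true reads of FOS are therefore probably a whole multiple of those recovered, and this interval is probably too wide. JUN lies on chromosome 1 at 59246463 to 59249785 (GRCh37, minus strand). EGR1 lies on chromosome 5 at 137801181 to 137805004 and FOS on chromosome 14 at 75745481 to 75748937 (GRCh37, plus strand).

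**Figure D3:**
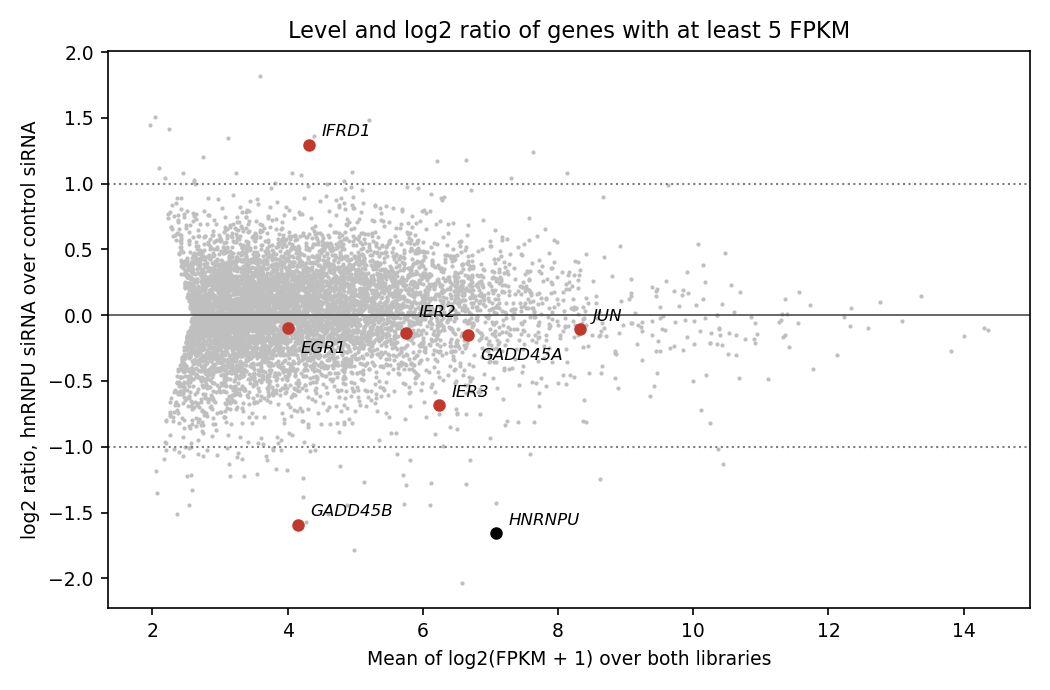
Each grey point is 1 of 7958 genes, with the mean of log2(FPKM + 1) over both libraries on the x axis and the log2 ratio of the hnRNPU siRNA library over the control siRNA library on the y axis; the 7 genes with at least 5 FPKM are red and HNRNPU is black. GADD45B (-1.59) lies at a height close to that of HNRNPU (-1.65) but at a lower level, both at the lower edge of the cloud, IFRD1 (1.30) at its upper edge, and EGR1, JUN, IER2 and GADD45A inside it.

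None of the other AP-1 genes listed lay as far from 0 as GADD45B. Of 14 other AP-1, ATF and small MAF genes, 9 reached 5 FPKM, and 1 of them, JDP2, lay at or past 0.5 in either direction. JDP2, a repressor that dimerises with JUN, was at 5.89 FPKM in the hnRNPU siRNA library and 13.7 FPKM in the control siRNA library (log2 ratio -1.09). JUN was at 52.5 times the level of JDP2 in the hnRNPU siRNA library and at 24.4 times in the control siRNA library. ATF2 (-0.43) was the next lowest, and MAFF (0.41) and BATF3 (0.38) had the highest log2 ratios. FOSL1, picked after its value was seen, was the dominant FOS family mRNA at 128 FPKM in the hnRNPU siRNA library and 169 FPKM in the control siRNA library (-0.40). It held 95.6% of the summed FPKM of FOS, FOSB, FOSL1 and FOSL2 in the hnRNPU siRNA library and 96.5% in the control siRNA library, so FOS itself was a minor component. JUN held 91.4% of the sum of JUN, JUNB and JUND in the hnRNPU siRNA library and 92.8% in the control siRNA library.

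Other immediate early genes were mixed. Of 19 listed, 8 reached 5 FPKM, with a median log2 ratio of -0.24; 2 lay at -0.5 or below and none at 0.5 or above. The 2 were the Krüppel-like factor genes KLF10 (-0.57; 14.8 FPKM in the hnRNPU siRNA library and 22.4 FPKM in the control siRNA library) and KLF2 (-0.50; 3.64 FPKM in the hnRNPU siRNA library and 5.59 FPKM in the control siRNA library). KLF6 (0.27) and MYC (0.17) were the highest. The list of relatives of the IER and IFRD genes was a mixed one of 9 genes. It held IFRD2, IER5L, IER3IP1, PHLDA1 and genes of the BTG and TOB family. All 5 that reached the minimum had log2 ratios above 0, against 53.9% of all 7958 genes, with a median of 0.26. The apoptosis regulator PHLDA1 led these 5 at 98.0 FPKM in the hnRNPU siRNA library and 71.6 FPKM in the control siRNA library (0.45). IER3IP1 (0.34), IFRD2 (0.23) and the antiproliferative gene TOB2 (0.145) were the others named by rule. The 4 below the minimum, picked after their values were seen, were BTG1 (-0.37), IER5L (-0.29), TOB1 (-0.14) and BTG2 (0.13).

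Binding partners and downstream kinases of GADD45 showed no common direction. Of the 12 of 14 partners at or above 5 FPKM, 6 lay above and 6 below 0, and none lay at or past 0.5. CDK1, the mitotic kinase, was at 19.0 FPKM in the hnRNPU siRNA library and 26.5 FPKM in the control siRNA library (-0.46), and the p38 activator MAP2K3 was at -0.42. The JNK activator MAP2K7 and the replication clamp PCNA were each at 0.27. MAP3K4, picked after its value was seen, was at 7.43 FPKM in the hnRNPU siRNA library and 6.10 FPKM in the control siRNA library (0.25). The median of the 12 was -0.08.

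Upstream transcription factors and kinases were also spread around 0, with a median of -0.04 over the 10 of 13 genes above the minimum. ELK3, an ETS partner of serum response factor, was at 28.5 FPKM in the hnRNPU siRNA library and 44.4 FPKM in the control siRNA library (-0.62), and no other of the 10 lay at or past 0.5. SRF, the serum response factor itself, stood at 15.4 FPKM in the hnRNPU siRNA library and 11.1 FPKM in the control siRNA library (0.43), close to the CREB relative ATF1 (0.42). Of the dual-specificity phosphatases, which switch MAP kinases off again, 5 of 10 reached the minimum, from DUSP6 (-0.62) and DUSP5 (-0.38) to DUSP16 (0.21) and DUSP14 (0.31), with a median of -0.03.

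mRNA decay factors and AU-rich element binding proteins had a median log2 ratio of 0.03 over the 17 of 19 genes above the minimum, of which 2 lay at -0.5 or below. HNRNPD, the AU-rich element binding protein AUF1, was at 255 FPKM in the hnRNPU siRNA library and 450 FPKM in the control siRNA library (-0.82). XRN1, the cytoplasmic 5' to 3' exonuclease, was at 5.27 FPKM in the hnRNPU siRNA library and 7.94 FPKM in the control siRNA library (-0.51). ZFP36L2, a zinc finger protein that promotes decay of AU-rich mRNAs, had the highest log2 ratio (0.35), followed by the deadenylase subunit CNOT7 (0.27). Over all 102 other genes listed, 67 reached 5 FPKM; 7 of these (10.4%) lay at -0.5 or below, against 6.20% of all 7958 genes, and none at 0.5 or above, against 6.13%. JDP2 was the 1 of the 67 at least 2-fold lower, against 0.754% of all. The median of the 67 was 0.03, the same as that of all 7958 genes.

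**Figure D4:**
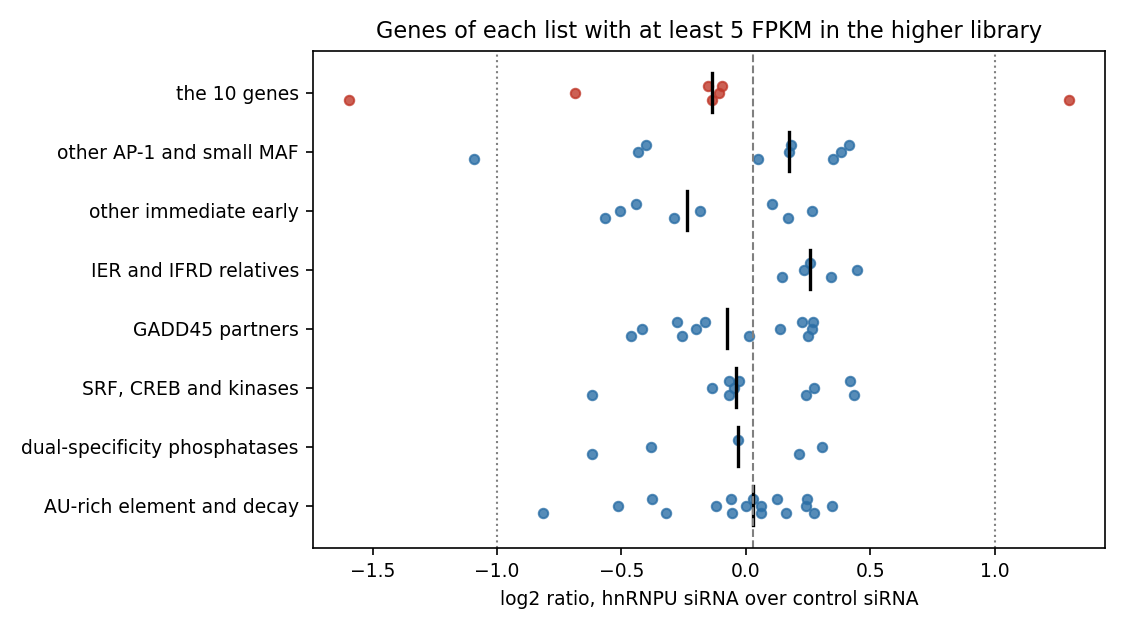
Log2 ratio of the listed genes that reached 5 FPKM, 1 row of points per list and without the list of reported hnRNPU-stabilised mRNAs, with the list median as a black bar, the median of all 7958 genes (0.03) as a dashed line and 2-fold as dotted lines. The 10 genes (red, 7 plotted) reach from -1.59 to 1.30, while in the other lists JDP2 (-1.09) alone passes 2-fold.

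Of 6 mRNAs reported to be stabilised by hnRNPU, 3 reached 5 FPKM: IER3 (-0.69), GADD45A (-0.15) and HEXIM1, the inhibitor of P-TEFb, which was at 7.85 FPKM in the hnRNPU siRNA library and 8.04 FPKM in the control siRNA library (-0.03). Only IER3 of these 3 lay at -0.5 or below, and the level of GADD45A was 1.63 times that of IER3 in the hnRNPU siRNA library and 1.12 times in the control siRNA library. The other 3, picked after their values were seen, were below the minimum. TNF was listed at 0 in both libraries. The homeobox gene HOXA2 had 3 recovered reads in the hnRNPU siRNA library and 5 in the control siRNA library, and the FPKM ratio of NHLH2, 1.27, had a counting interval of 0.916 to 1.77. Steady-state levels of this kind do not measure mRNA stability.

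AU-rich elements are the decay signal best known in immediate early mRNAs, and the pentamer ATTTA was located in the 3' UTR of each gene. GENCODE 29 sequences were used, taking the transcript with the longest 3' UTR on the transcript strand, and overlapping copies were counted apart. It was present in 7 of the 10 genes and in 75.2% of 6997 mRNAs with at least 5 FPKM and such a 3' UTR. IER3 had 6 copies (6.64 per kilobase, more than 96.4% of these mRNAs), IFRD1 had 11 (6.54 per kilobase, more than 96.2%) and FOS had 5 (6.20 per kilobase, more than 95.2%). IER5 had 10, JUN 3, GADD45A 2 and EGR1 1, and the median of the 6997 mRNAs was 1.82 per kilobase. GADD45B, GADD45G and IER2 had none. The longer form TTATTTATT was found 3 times in IER5 and once in FOS, and in 9.13% of the 6997 mRNAs.

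The densest 30-base windows are shown for the 4 genes picked for having at least 2 pentamers in a window, 5' to 3' with the pentamers in capitals. Coordinates are those of GRCh38, the build of GENCODE 29, and not of the deposited table. The IER5 window lies outside the shorter span that the deposited table lists for IER5.
IER3 3' UTR, chr6:30743647-30743676, minus strand: aattaatATTTAtatgtATTTAtgtacgtc
IFRD1 3' UTR, chr7:112475739-112475768, plus strand: tttggtcataATTTATTTAtgaagacagca
FOS 3' UTR, chr14:75282058-75282087, plus strand: tgtgtttttaATTTATTTAttaagatggat
IER5 3' UTR, chr1:181092449-181092478, plus strand: tcctttATTTATTTATTTATTTAattataa

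Of the 3 genes with the highest density, IER3 had a log2 ratio of -0.69, IFRD1 of 1.30 and FOS of -0.23. In the annotated 3' UTRs GADD45A (3.55 per kilobase) and IER5 (3.32 per kilobase) were alike in density, and they had log2 ratios of -0.15 and -0.07. The genes with no copy were GADD45B (-1.59), IER2 (-0.14) and GADD45G (-0.04). The part of the element in these differences was not tested. IER3's copies lay mostly in the middle of its annotated 3' UTR of 903 bases. Those of IFRD1 were spread over 1681 bases from the stop codon onward. The IER3 transcript used has 1 exon and 1350 bases, while the recovered length of IER3 was 1240 bases. The 3' UTR of the measured IER3 mRNA, and its density of copies, can therefore differ. The gap is larger for IER5, whose transcript used has 4188 bases with a 3' UTR of 3013. The listed span and recovered length of IER5 were both 2342 bases. Its window shown, 2563 to 2592 bases after the stop codon, was therefore not part of the measured gene. The density given for IER5 is that of the annotation only. GADD45B had a 3' UTR of 658 bases.

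**Figure D5:**
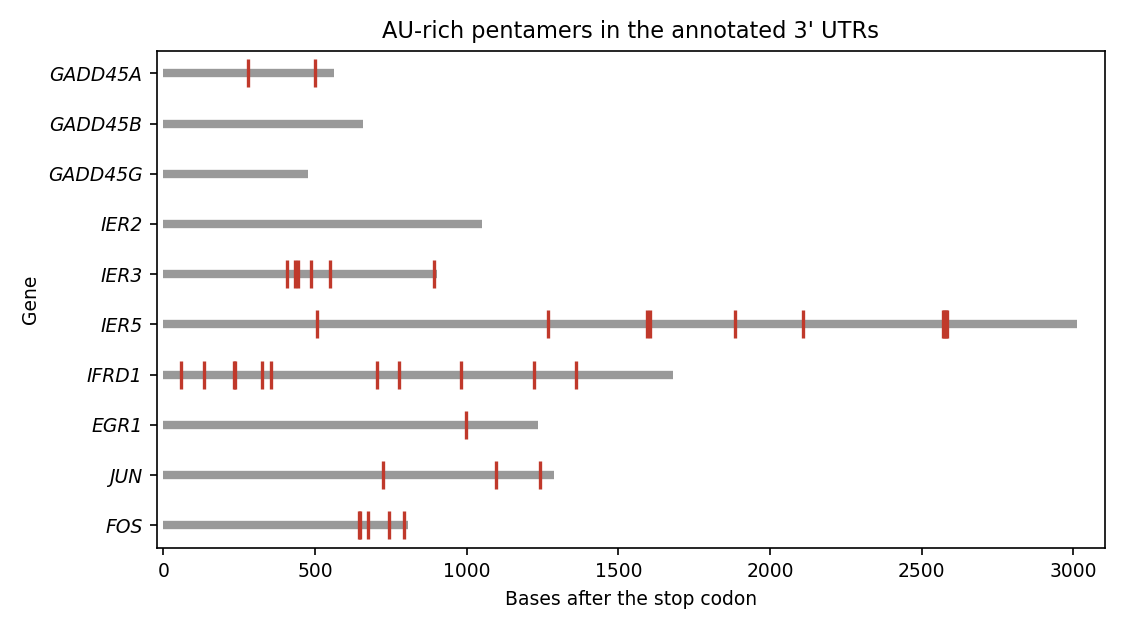
Annotated 3' UTR of each of the 10 genes drawn to scale as a grey bar from the stop codon, in bases, with each ATTTA pentamer as a red tick. IER3 (6 copies in 903 bases) and IFRD1 (11 in 1681 bases) are similarly dense, and GADD45B, GADD45G and IER2 have none.

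Promoters were compared in the same descriptive way for the 8 genes with an entry in the RefSeq table (GRCh38.p14), over the 250 bases before the start site and on both strands. The full CREB site TGACGTCA was found in IFRD1 alone, at 100 to 93 bases before the start, and in 2.34% of 14120 mRNA promoters of listed genes. The shorter form TGACG, which the full site contains on each strand, was found in 5 of the 8 (IER2, IFRD1, EGR1, JUN and FOS), against 25.6% of the 14120. Within these 250 bases the CArG box, the site of serum response factor, was found in EGR1 alone, with 2 copies, against 1.13%. Sites farther upstream were not searched, so a gene without a match here can have one there. TATAAA was found in GADD45B and FOS, against 8.99%. The EGR site GCGNGGGCG was found in GADD45B and EGR1 (11.5%), the ATF4 composite site TGATGNAA in GADD45G (2.203%), and the AP-1 site TGANTCA in none of the 8 (5.05%). Among the 5809 of these promoters whose genes reached 5 FPKM, the shares differed. They were 3.43% for TGACGTCA, 33.5% for TGACG, 1.05% for the CArG box and 4.68% for TATAAA. For the EGR, ATF4 composite and AP-1 sites they were 14.05%, 1.22% and 3.53%. Variants of the searched letters were not counted. TGACATCA in the JUN promoter, close to both TGANTCA and TGACGTCA, is such a variant.

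The promoters of the 2 genes that differed at least 2-fold and of EGR1, which differed little, are shown for comparison, 5' to 3' and ending at the base before the start site. Capitals mark TGACGTCA in IFRD1, TATAAA in GADD45B, and the 2 CArG boxes and 2 copies of TGACG (here as CGTCA on the opposite strand) in EGR1.
IFRD1 promoter, chr7:112450258-112450507, plus strand: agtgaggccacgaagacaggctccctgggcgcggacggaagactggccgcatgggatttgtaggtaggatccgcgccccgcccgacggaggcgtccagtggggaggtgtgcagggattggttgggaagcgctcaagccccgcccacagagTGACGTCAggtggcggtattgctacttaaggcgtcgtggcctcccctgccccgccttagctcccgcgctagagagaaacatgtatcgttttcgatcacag
GADD45B promoter, chr19:2475877-2476126, plus strand: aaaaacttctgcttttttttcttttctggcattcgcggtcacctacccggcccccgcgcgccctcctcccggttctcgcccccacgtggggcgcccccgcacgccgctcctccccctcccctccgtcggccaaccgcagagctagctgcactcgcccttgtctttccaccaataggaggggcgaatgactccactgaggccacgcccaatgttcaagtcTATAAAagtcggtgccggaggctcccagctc
EGR1 promoter, chr5:138465229-138465478, plus strand: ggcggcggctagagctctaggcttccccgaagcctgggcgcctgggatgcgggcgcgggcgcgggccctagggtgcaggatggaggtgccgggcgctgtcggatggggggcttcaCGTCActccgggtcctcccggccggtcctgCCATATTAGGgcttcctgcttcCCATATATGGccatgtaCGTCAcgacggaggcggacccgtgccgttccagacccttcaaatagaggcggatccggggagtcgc

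A match of letters is a description and not evidence that a factor binds there. Of the genes for these sites' factors, CREB1, picked after its value was seen, was at 5.26 FPKM in the hnRNPU siRNA library and 5.57 FPKM in the control siRNA library (-0.07), and SRF and ATF1 are given above.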

How the data were processed

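Total RNA of RKO cells was sequenced in 2 libraries, 1 per group, and groups were taken from the treatment labels. The deposited table holds 1 FPKM value per gene and library, computed by the authors; per the submitters' processing notes they used Bowtie and GRCh37. No annotation, counting program or strand setting was stated there. FPKM depends on the authors' depth and gene lengths, and no further scaling was applied.

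The 10 genes and the lists were chosen with earlier results of these data known. Log2 ratios used a pseudocount of 1 FPKM, and counts used genes that reached 5 FPKM in 1 library or both. Genes named were HNRNPU, the 10 genes, and the 2 highest and 2 lowest of each other list; others are marked as picked after their values were seen. A gene that this rule names is not reported here. Depth was the read number at which most short mRNAs and snoRNAs (spans under 600 bases) held 1 to 6 whole reads. Within a relative tolerance of 1e-06, 63.4% of such genes in the hnRNPU siRNA library and 63.5% in the control siRNA library were whole. Reads and gene length were recovered by expressing FPKM as a fraction of whole numbers, in 95.8% of 17552 genes above 0 in both libraries and in all 10 genes. These reads are in lowest terms, so the true number can be a whole multiple and the intervals too wide. For none of the 10 genes was the recovered length over the listed span, as happens where a read is shared out among genes. Intervals were Clopper-Pearson (ratios) or Poisson (levels), from SciPy 1.17.1 under Python 3.11.15. On simulated libraries of 13961 genes at these depths, both depths were recovered and, of 200 genes changed 3-fold, 100% passed 2-fold. The changed genes were drawn at a higher level than the minimum, and only counting noise was simulated. Passing 2-fold was thus nearly fixed by the setting and says nothing about variation between cultures. Alternatives were pseudocounts of 0.1, 0.5 and 5 FPKM, 3 rescalings and other minimum levels. No other value columns were present.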

Additional observations from a re-analysis of the deposited data

How the results depend on the processing

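No paired analysis was possible because there was just 1 library for either siRNA. Under all 9 alternatives run, 1 of the 10 genes was at least 2-fold higher, 1 at least 2-fold lower and 3 at or past 0.5, and the median of the genes above the minimum lay between -0.18 and -0.11. No log2 ratio of the 10 genes changed sign under 6 pseudocounts and rescalings: GADD45B ranged from -1.68 to -1.29, IER3 from -0.73 to -0.65, IFRD1 from 1.08 to 1.36 and GADD45A from -0.19 to -0.12. Of these 60 comparisons, 57 lay within the counting interval. The 3 outside it were IFRD1 with 5 FPKM added (1.08) and JUN under 2 rescalings. JUN (-0.11) was at -0.08 with FPKM sums made equal and at -0.15 with the median ratio set to 1. The log2 ratio of HNRNPU (-1.65) was -1.61 with 5 FPKM added, -1.62 with FPKM sums made equal and -1.69 with the median ratio set to 1, each past its counting error, as the added constant or factor implies. Equal sums, the median ratio and the upper quartile shift log2 FPKM ratios by 0.03, -0.04 and -0.01, and less for low genes once 1 FPKM is added. The number of other listed genes at or past 0.5, 7, ranged from 4 to 9: it was 4 at a pseudocount of 5 FPKM, which shrinks ratios, and 4 at a minimum of 20 FPKM, which leaves fewer genes, 5 with equal sums, 8 at a pseudocount of 0.1 FPKM and 9 at a minimum of 1 FPKM or none. At 20 FPKM the other AP-1 genes (median 0.17) were down to FOSL1 (-0.40), the phosphatases to DUSP5 and DUSP6 (median -0.50, against -0.03) and the reported hnRNPU-stabilised mRNAs to IER3 and GADD45A (-0.42, against -0.15). The medians of the other AP-1 genes, phosphatases and decay factors crossed 0 under some alternatives. That of the other AP-1 genes was 0.02 at a minimum of 1 FPKM and -0.001 with no minimum. FOS (at least 45 reads with hnRNPU siRNA, at least 48 with control siRNA) and GADD45G (5 recovered reads in each) rested on few reads. At a pseudocount of 0.1 FPKM FOS was at -0.39.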
